A study of Mus musculus with 12 samples.

Results

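Left ventricles of mouse embryos that lack Nos3 were compared with those of wild-type embryos, gene by gene. The comparison uses 6 of the 12 arrays of the series, 3 per genotype, taken by the genotype and ventricle in their labels, and it covers 18194 genes. Each gene is represented by its probe set of highest mean over all 12 arrays. Ventricles were dissected at 14.5 days post coitum (dpc), and each array carried RNA from a pool of 15 to 30 embryos, so a replicate is a pool and not an embryo. The labels do not say that pools of a group came from separate litters or days, and p-values measure only the spread between these pools. Wild-type embryos (WT) were CD1 mice, an outbred stock. Knockout embryos (KO) were Nos3-/- of the strain B6.129P2-Nos3tm1unc/J, which carries the targeted allele in all cells from conception. Genotype and strain background changed together, so the Nos3 allele and the strain cannot be told apart in any value below.

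Nos3 encodes the endothelial enzyme that makes nitric oxide from arginine, in vessels and in the endocardium. Nitric oxide enters neighbouring cells and activates soluble guanylate cyclase, whose product cGMP acts through protein kinase G and is broken down by phosphodiesterases. At this stage endocardial and epicardial signals thicken the ventricular wall, heart muscle moves towards mitochondrial respiration, and mice without Nos3 are known for septal and valve defects.

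Expression is given as log2 values, and differences are KO minus WT on that scale. A gene is called where the adjusted p of limma, a linear model fitted to all genes with moderated variances, is below 0.05. Nos3 itself, read by 1 probe set, was at 8.35 ± 0.05 in WT and 7.94 ± 0.08 in KO (SD, n = 3 each), and the fall of 0.41 was called but not in any of the 6 fits that left out 1 left ventricle array (differences of -0.44 to -0.36). Whether the transcript of the disrupted allele is read by this probe set is not given. The arrays also differed by genotype in technical measures. The 24 probe sets for poly-A transcripts, which are added to the RNA before labelling, averaged 8.89 to 8.94 in WT and 8.06 to 8.47 in KO, and the 18 hybridisation controls 11.56 to 11.70 and 11.33 to 11.41. The 3′ over 5′ signal of Gapdh, a measure of RNA integrity in which a higher value means more loss, was 0.36 to 0.40 in WT and 0.24 to 0.32 in KO. Each of these 3 measures had a two-sided exact permutation p of 0.1, the smallest that 3 against 3 arrays can give. The 3′ minus 5′ signal of actin overlapped, at 1.13 to 1.20 in WT and 1.01 to 1.18 in KO (exact permutation p = 0.3). Ventricular heart muscle markers averaged 13.33 to 13.39 in WT and 13.45 to 13.71 in KO, and 0 of the 9 lay below the median of all values, 5.67. Of the lists for other organs, fetal liver markers averaged 6.62 to 8.05 in WT and 5.67 to 6.49 in KO. Lung markers averaged 5.31 to 5.52 and 5.08 to 5.21, below that median, while of the 4 single markers 2 were below it. Skeletal muscle markers averaged 5.41 to 6.16 and 5.21 to 5.76, with 4 of the 6 below it. Of 6 neural crest and nerve markers only 3 were measured, with 1 of them below the median. These averaged 6.44 to 6.83 in WT and 5.70 to 5.93 in KO. The only 1 of the 3 called lower was Fabp7, whose fall of 2.29 is part of this average.

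In the left ventricle 3378 genes (18.6%) were called higher and 2239 (12.3%) lower in KO, 5617 of 18194 in all (30.9%). The values of the 2 genotypes did not overlap for 8070 genes (44.4%), and 381 called genes (2.09%) differed by 1 or more, 269 higher (1.48%) and 112 lower (0.616%). This split depends on the scaling: of the calls 60.1% were higher as deposited, 77.9% after centring each array on its median (4282 higher, 1212 lower) and 50.3% after a further quantile normalization (2878 and 2838). Left out in turn, the 6 arrays gave 2487 to 3242 higher and 1421 to 1849 lower calls, the fewest lower calls without KO_LV replicate 2. Of the genes called higher 2178 (64.5%) and of those called lower 1096 (49%) were called the same way in each of these 6 fits. With the poly-A control level as a covariate 1704 of the higher and 726 of the lower calls held. With a term for high or low control level, which rests on WT_RV replicate 3 alone as the only wild-type array with high controls outside the left ventricle, 123 and 58 held. Counts under both terms are given for the gene lists below, with the count at an unadjusted limma p below 0.05 in brackets where a count is 0. To set beside these, all 18194 genes gave 1767 higher and 782 lower calls with the covariate, and 134 and 63 with the 2-level term. At an unadjusted limma p below 0.05 they gave 1479 higher and 898 lower with the 2-level term, and 4211 and 3369 without either term. What part the control level has in a difference was not tested.

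**Figure D1:**
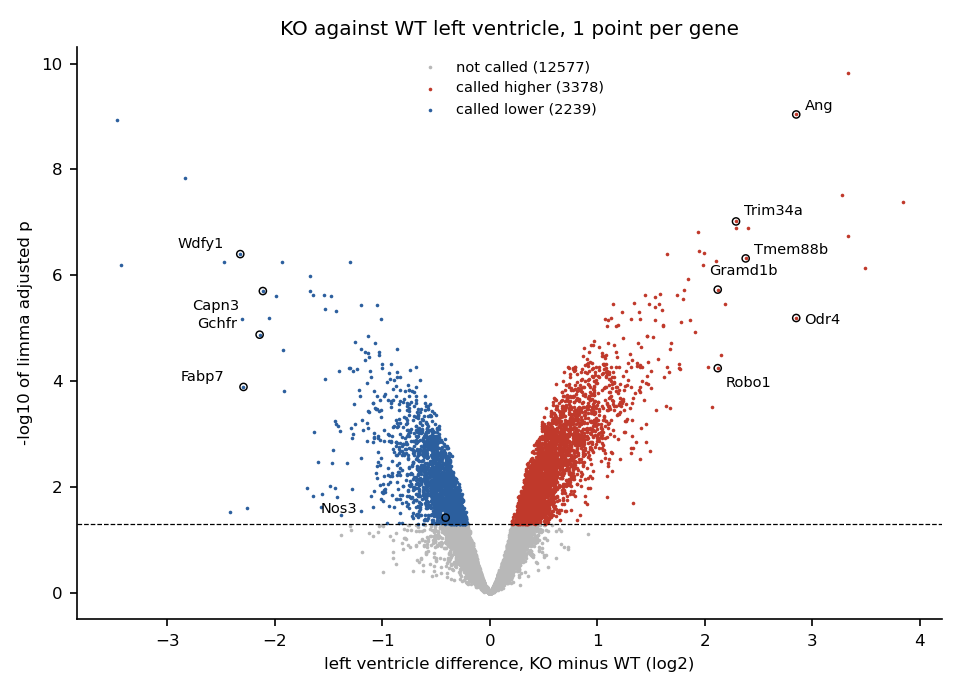
Difference between KO and WT left ventricles (x axis, log2) against -log10 of the limma adjusted p (y axis), 1 point per gene, with the threshold dashed and circled genes labelled. Of 18194 genes 3378 lie in the called region on the right and 2239 on the left.

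Calls differed with the length of the gene. Among the length quintile of genes with the shortest span on the genome (median 3.32 kb) 7.79% were called higher and 16.4% lower. The shares crossed in the middle quintile (20.2 kb, 15.6% and 14.2%), and among the longest genes (117 kb) 35.2% were called higher and 5.9% lower. Genes called higher had a median length of 43.6 kb, genes called lower 13.5 kb and genes not called 18 kb. Lengths were available for 18146 genes (99.7%). Calls were also rarer among dim genes: in the dimmest quintile 2% were called higher and 4.11% lower, in the brightest 27.5% and 22.3%. The lists below differ in length, so their median lengths are given, and what part length has in the count of a list was not tested. The shares of all genes to set beside each list are 18.6% called higher and 12.3% called lower.

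**Figure D2:**
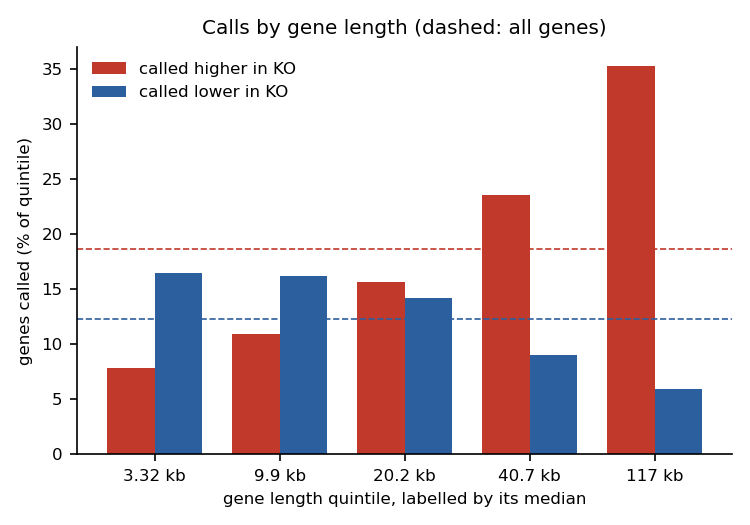
Share of genes called higher (red) and lower (blue) in KO left ventricles (y axis, % of the quintile) for 5 groups of genes ordered by length (x axis, median of the group in kb), with the shares over all genes dashed. The share called higher climbs from 7.79% to 35.2% with length and the share called lower drops from 16.4% to 5.9%.

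The largest differences, by genes whose genotypes do not overlap, were in genes whose roles lie mostly outside nitric oxide signalling. Among genes with a name, predicted and clone names left aside, the 5 largest rises were in Vps52 (3.84), Rpgrip1 (3.49), Nxpe4 (3.33), Nipal4 (3.33) and Trim12a (3.28), and the 3 largest falls in Hddc3 (-3.47), Tmem87a (-2.83) and Scg5 (-2.47). Other probe sets did not show this for Vps52 (-0.24), Trim12a (-0.09) and Hddc3 (0.07), and those of Rpgrip1 ran from -0.19 to 0.43, while that of Nipal4 read 0.31. Of the next in size several are given in more detail. Afp, alpha-fetoprotein, a secreted protein of fetal liver, fell by 2.42, from 10.11, 11.27 and 8.88 to 8.75, 6.4 and 7.85, with -1.99 to 0.05 on its other probe sets, and was not called without WT_LV replicate 1 or 2 or KO_LV replicate 2 or 3. Alb, albumin, of the same organ, fell by 2.26, from 9.09, 10.57 and 8.33 to 7.78, 6.10 and 7.34, and was not called without WT_LV or KO_LV replicate 2. Ang, angiogenin, a secreted ribonuclease, read 5.02, 5.07 and 4.77 on the WT arrays and 7.91, 7.76 and 7.74 on the KO arrays, a rise of 2.85 (SE 0.10, limma adjusted p = 9.16e-10), with 0.52 and 0.88 on its other probe sets. Tmem88b, a membrane protein of the TMEM88 family, read 5.90, 5.92 and 5.34 on the WT arrays and 7.86, 8.11 and 8.34 on the KO arrays, a rise of 2.38 (SE 0.15, adjusted p = 4.79e-07). The WT and KO values of Ang and Tmem88b lay far apart. Odr4 rose by 2.85, the zinc finger gene Zfp874a by 2.29 and Gramd1b, a cholesterol transporter between membranes, by 2.12. Among the falls, Wdfy1, an adaptor of Toll-like receptor signalling, read 8.49, 8.76 and 8.78 on the WT arrays and 6.42, 6.62 and 6.04 on the KO arrays and fell by 2.32 (SE 0.15, adjusted p = 3.97e-07). Capn3, a muscle protease, fell by 2.11, Dhrs7c, a reductase of the sarcoplasmic reticulum, by 2.05, Eno2, the neuronal enolase, by 1.99 and the zinc finger gene Zfp458 by 2.30. Fabp7, a fatty acid binding protein of glial cells, fell by 2.29, from 9.53, 8.27 and 9.06 to 6.72, 6.43 and 6.83. Right ventricles, which are different arrays, read much the same for several of these genes, with 2.44 for Ang, 2.86 for Odr4, 2.41 for Zfp874a, -2.18 for Wdfy1, -1.98 for Capn3 and -2.14 for Eno2, and less for Tmem88b (1.01) and Fabp7 (-1.18). With the 2-level control term Fabp7 (-1.64) was no longer called, while Ang, Tmem88b, Odr4, Zfp874a, Gramd1b, Wdfy1, Capn3, Dhrs7c, Eno2 and Zfp458 were. Zfp458 read -0.04 on its second probe set and Odr4 0.36, and the others of Wdfy1 ran from -2.54 to -0.13.

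Genes read by several probe sets allowed a check within the array. Of the 5617 called genes 2410 had a further probe set brighter than the median of all values, and in 678 of these at least 1 of them had the opposite sign. Other probe sets are not printed for every gene below, so a missing value does not mean that they read the same. In 199 called genes, 144 higher and 55 lower, all probe sets were above the median and differed by 0.5 or more in the same direction. These held Ednrb, the endothelin receptor B of endothelium and neural crest, at 9.21, 9.22 and 9.01 in WT and 10.62, 10.58 and 10.80 in KO, a rise of 1.52 with 0.88 and 1.13 on its other probe sets. Tgfbi, a matrix protein induced by TGF-beta, rose by 1.40, with 1.16 to 1.49 on 3 others, and Sox11, a transcription factor of outflow tract and mesenchyme, by 1.40, with 0.92 to 2.60 on 5 others. Tmem108, Slco3a1, an organic anion transporter, and Rassf5, a Ras effector of leukocytes and epithelia, rose by 1.34, 1.22 and 1.42. On the lower side Cap1, which recycles actin monomers, read 9.52, 9.68 and 10.02 on the WT arrays and 8.03, 8.33 and 8.26 on the KO arrays and fell by 1.53 with -0.74 on its other probe set. Hemk1, a methyltransferase, fell by 1.20, Atp6v0b, a proton pump subunit, by 1.18, Ptgds, a prostaglandin D2 synthase, by 1.01 and S100a1, a calcium sensor of heart muscle, by 0.91. In none of these genes did the genotypes overlap, as in 44.4% of all genes. The choice of called genes with differences of 0.5 or more favours this. With the 2-level control term Ednrb (0.90), Tgfbi (1.07), Tmem108 (1.00), Cap1 (-1.55) and Hemk1 (-1.16) were called, and Sox11 (0.70), Slco3a1 (0.45), Rassf5 (0.97), Atp6v0b (-0.43), Ptgds (-0.33) and S100a1 (-0.08) were not.

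**Figure D3:**
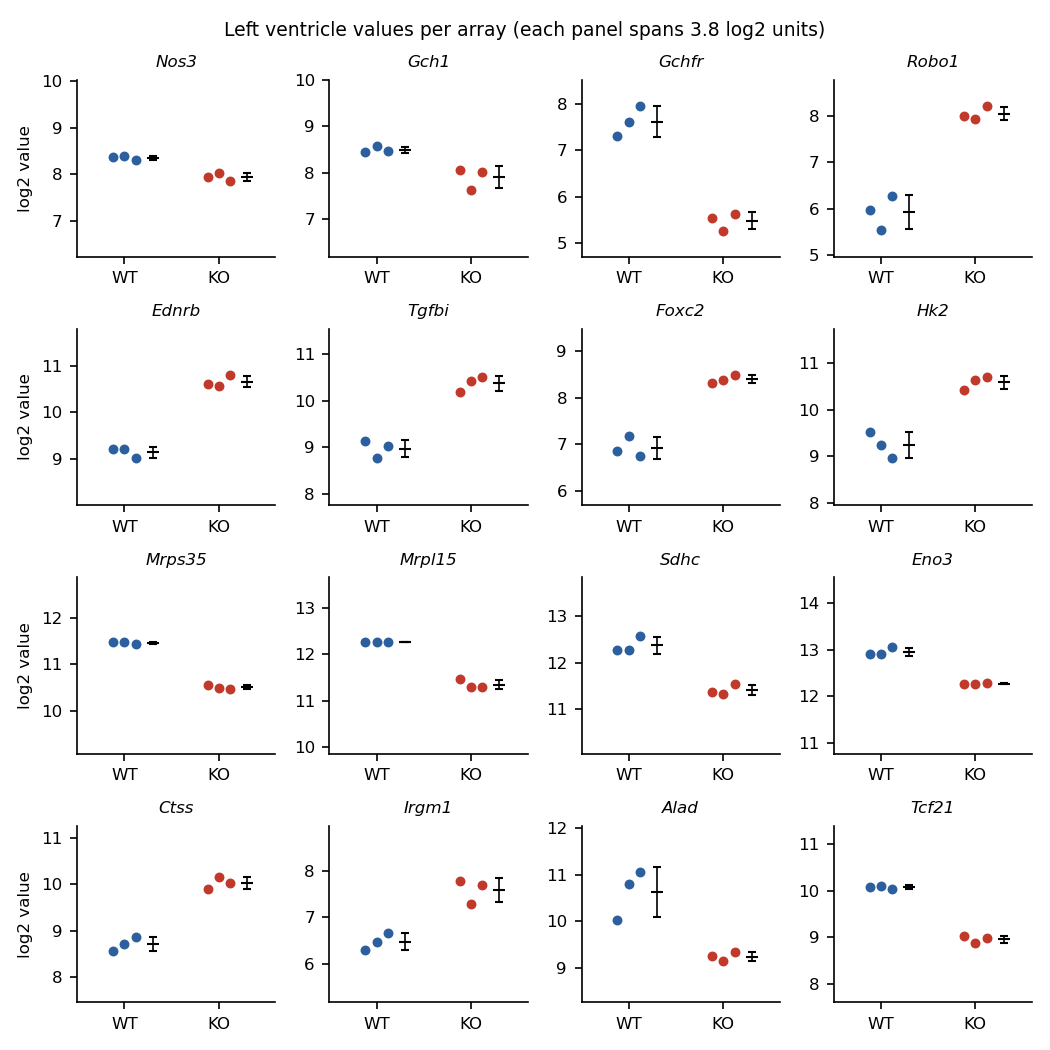
Log2 values (y axis) of 16 genes in the 3 WT (blue) and 3 KO (red) left ventricle arrays, with the mean and SD beside each group, all panels on a range of the same width. In each panel the KO values lie wholly above or wholly below the WT values, closest together in Nos3 and Gch1.

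Genes of nitric oxide and cGMP were called in both directions, at shares near those of all genes. Of 36 measured 9 were called higher (25%, against 18.6% of all genes) and 4 lower (11.1%, against 12.3%). Together these were 36.1% against 30.9% of all genes. The median was 0.08 and the median length 37.5 kb. On the synthesis side Gch1, the rate-limiting enzyme for tetrahydrobiopterin, the cofactor of nitric oxide synthases, read 8.44, 8.57 and 8.48 on the WT arrays and 8.06, 7.63 and 8.02 on the KO arrays and fell by 0.59 (SE 0.15, limma adjusted p = 0.00773). Gchfr, the protein that mediates feedback inhibition of that enzyme by the cofactor, was not in the list. It read 7.30, 7.60 and 7.95 on the WT arrays and 5.55, 5.27 and 5.62 on the KO arrays and fell by 2.14 (SE 0.20, adjusted p = 1.32e-05), with -1.76 in the right ventricle. The KO values of Gchfr were all below the median of all values and the WT values all above it. Nos2, the inducible synthase, fell by 0.47 from 5.44 to 5.84 in WT to 5.02 to 5.32 in KO, a level below that median. Downstream, Pde3b, a phosphodiesterase that cGMP inhibits, read 8.59, 8.80 and 9.07 on the WT arrays and 9.82, 9.99 and 10.06 on the KO arrays and rose by 1.14 (SE 0.14, adjusted p = 8.41e-05). Protein kinase G1, Prkg1, rose by 0.66 and Npr3, the clearance receptor of natriuretic peptides in endocardium, by 0.98, with 0.98 and 1.45 on its other probe sets. Furin, a protease that cleaves precursor proteins, rose by 1.02. The soluble guanylate cyclase subunit Gucy1a2 (0.23) and Pde5a, a main cGMP phosphodiesterase (0.19), were not called. With the covariate 6 members were called higher and 1 lower, and with the 2-level term 0 (6 higher and 2 lower), while Gchfr was called under both (-1.77 and -1.41). The count of members called lower was 2 or 3 without any 1 array, since Nos3 itself was then lost and, with WT_LV replicates 2 and 3 or KO_LV replicates 2 and 3 left out, Ddah2 too.

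Proteins of the mitochondrial ribosome, which translates the few respiratory subunits encoded in mitochondrial DNA, were lower almost throughout. Of 72 measured 56 were called lower and 0 higher, also 0 at an unadjusted limma p below 0.05 (77.8% lower, against 12.3% of all genes), with a median of -0.45 against -0.01 over all genes. The genotypes did not overlap for 67 of the 72, against 44.4% of all genes. Mrps35 of the small subunit read 11.47, 11.48 and 11.44 on the WT arrays and 10.56, 10.49 and 10.47 on the KO arrays and fell by 0.96 (SE 0.12, limma adjusted p = 0.000105). Of the large subunit, Mrpl15 fell by 0.92, from 12.27, 12.26 and 12.26 to 11.46, 11.29 and 11.29, with -1.58 to -0.13 on its other probe sets, and Mrpl41 by 0.90, with -0.95 and -0.08. The pools of a genotype lay close together in these 3 genes. The 2 brightest members that were not called were Mrpl51 (0.12) and Mrps14 (-0.20). Their median length was 7.69 kb. By length, those called lower were 22 of 31 in the shortest quintile of all genes, 22 of 24 in the next, 7 of 11 in the middle one 4 of 4 in the one before the longest, where 9.04% of all genes were called lower, and 1 of 2 in the longest. Without any 1 left ventricle array 45 to 51 members were called lower, with median centring 41 and with a further quantile normalization 60, and 0 were called higher in each of these fits. In the right ventricle the median was -0.15 and 5 were called lower, and -0.04 and 3 without WT_RV replicate 3. With the poly-A covariate 19 were called lower (median -0.30) and with the 2-level term 0 (8 at an unadjusted p, median -0.12).

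Promoters of genes for mitochondrial proteins often hold binding motifs of NRF1 and of ETS factors such as GABP, which are known regulators of this class, so these motifs were searched in the RefSeq promoter windows of build GRCm38.p6, 300 bases around the start of a transcript. The letters were GCGCA, any base and GCGC for NRF1, and CCGGAAG for ETS, on both strands, and in the windows shown no match overlapped another. A match is a description of the letters, not of binding. A match was present for 30 of the 64 mitochondrial ribosome genes with a window (46.9%), against 21.7% of all 14453 genes with one. Of the 30 genes with a match 21 were called lower (70%), and of the 34 without 28 were (82.4%). Over all genes outside the list 18.5% of those with a match and 10.6% of those without were called lower. Of the genes shown next, Mrpl17 read -0.13 on its other probe sets. The windows of 3 genes that fell, chosen for their matches, are shown, written 5′ to 3′ on the strand of the gene, with the motifs in capitals: Mrpl17 (a fall of 0.80, minus strand, chr7:105811038-105811337), with 1 match of each kind, Mrpl14 (0.84, plus strand, chr17:45686099-45686398), with the NRF1 motif from base 4 after the start, and Mrps16 (0.67, minus strand, chr14:20393441-20393740), the first of its 2 windows, with 2 ETS matches on the reverse strand.
Mrpl17: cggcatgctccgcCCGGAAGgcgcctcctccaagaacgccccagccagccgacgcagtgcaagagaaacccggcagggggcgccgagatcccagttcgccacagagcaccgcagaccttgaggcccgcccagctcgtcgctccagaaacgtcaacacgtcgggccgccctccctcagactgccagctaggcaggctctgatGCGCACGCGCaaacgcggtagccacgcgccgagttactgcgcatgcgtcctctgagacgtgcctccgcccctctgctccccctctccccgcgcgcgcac
Mrpl14: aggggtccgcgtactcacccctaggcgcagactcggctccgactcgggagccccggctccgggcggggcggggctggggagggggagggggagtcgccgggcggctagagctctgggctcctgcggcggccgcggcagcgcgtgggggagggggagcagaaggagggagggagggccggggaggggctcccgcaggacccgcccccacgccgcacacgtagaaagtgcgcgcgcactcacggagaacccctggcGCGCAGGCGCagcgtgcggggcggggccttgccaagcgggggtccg
Mrps16: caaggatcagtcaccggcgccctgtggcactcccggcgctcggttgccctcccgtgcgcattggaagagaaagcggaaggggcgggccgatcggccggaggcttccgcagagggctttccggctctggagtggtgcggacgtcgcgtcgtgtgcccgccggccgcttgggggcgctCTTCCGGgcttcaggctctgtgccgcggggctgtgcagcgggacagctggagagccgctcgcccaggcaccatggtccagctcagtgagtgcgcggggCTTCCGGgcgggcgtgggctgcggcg

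The lists of respiratory complexes and fatty acid oxidation held more lower than higher calls, with smaller shares, while those of the citrate cycle and of mitochondrial antioxidants were more mixed. Of 62 genes of respiratory complexes other than cytochrome c oxidase 29 were called lower and 0 higher (also 0 at an unadjusted limma p), with a median of -0.24 and a median length of 7.39 kb. Sdhc, an anchor of succinate dehydrogenase in the inner membrane, read 12.27, 12.27 and 12.58 on the WT arrays and 11.37, 11.32 and 11.53 on the KO arrays and fell by 0.97 (SE 0.13, limma adjusted p = 0.000173). Uqcrq of complex III fell by 0.65, with -0.36 to 0.15 on its other probe sets, and Ndufa6 of complex I by 0.62, while Sdha, the catalytic subunit of succinate dehydrogenase, was at 0.22 and the ATP synthase subunit Atp5a1 at 0.12, neither called. Of 23 cytochrome c oxidase genes 8 were called lower and 2 higher (median -0.19, median length 5.99 kb), and 4 to 6 lower without any 1 array, 4 without WT_LV replicate 2 and 5 without WT_LV replicate 1 or KO_LV replicate 2 or 3. Of 33 genes of the citrate cycle and pyruvate 7 were called lower and 4 higher (median -0.03, 24.3 kb), with 7 higher without WT_LV replicate 3. Of 35 genes of mitochondrial antioxidants and glutathione 9 were called lower and 5 higher (median -0.13, 13 kb), with 5 lower without WT_LV replicate 3 or KO_LV replicate 2, and 2 higher without KO_LV replicate 3. Of 36 genes of fatty acid uptake and oxidation 17 were called lower and 1, Acsl3 (0.43), higher (median length 20.9 kb), with the enoyl-CoA hydratase Echs1 at -0.71. The count called lower was 10 to 13 without any 1 array, the lowest without WT_LV replicate 3 or KO_LV replicate 1, and 9 lower against 4 higher with median centring. Outside the mitochondrion, of 39 genes of proteasome and chaperonin, which degrade and fold proteins, 15 were called lower and 2 higher (median length 12.7 kb), with Psmd13 at -0.69 and Psma7 at -0.67, and with median centring 7 and 5. In the cytosolic ribosome 8 of 43 genes were called lower (18.6%) and 0 higher (also 0 at an unadjusted limma p). The lower share was near the 12.3% of all genes. It was also near the 16.4% of the shortest length quintile, which holds their median length of 3.27 kb. Without any 1 array 3 to 8 were called lower. With the poly-A covariate 6 of the respiratory genes, 8 of the fatty acid genes and 3 of the proteasome genes were called lower, and with the 2-level term 0 of each (3, 8 and 1 at an unadjusted p). With the covariate 3 cytochrome c oxidase genes, 4 of the citrate cycle, 3 of the antioxidants and 3 of the cytosolic ribosome were called lower and 0, 2, 3 and 0 higher, and with the 2-level term 1, 0, 0 and 0 lower (1, 5, 3 and 0 at an unadjusted p).

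Glucose uptake and its first steps moved the other way. Of 43 genes of glycolysis and hypoxia 16 were called higher (37.2%, against 18.6% of all genes) and 6 lower (14%, against 12.3%). Their median was 0.18 and their median length 21.8 kb. Hk2, the muscle hexokinase that traps glucose in the cell, read 9.53, 9.24 and 8.96 on the WT arrays and 10.43, 10.63 and 10.71 on the KO arrays, a rise of 1.35 (SE 0.18, limma adjusted p = 0.000165). Slc2a1, the main fetal glucose transporter, rose by 0.97, with 0.77 and 0.88 on its other probe sets. Egln1, the oxygen sensor that marks hypoxia-inducible factor for degradation, rose by 0.72, with 0.14 on its other probe set. Among the 6 called lower were Eno3, the muscle enolase, which fell by 0.69 from 12.91, 12.90 and 13.06 to 12.26, 12.27 and 12.28, and Aldoc at -0.51, with 0.12 on its other probe set. The enzymes between, such as Pgk1 (0.05) and Aldoa (0.10), were not called. Right ventricles read 0.76 for Hk2, 0.80 for Slc2a1 and -0.43 for Eno3, each called, Hk2 not without WT_RV replicate 3. With the covariate 7 were called higher and 3 lower, and with the 2-level term 1 and 1. The lower count was 3 without WT_LV replicate 3 or KO_LV replicate 2. Of 18 genes of creatine and phosphate energy 5 were called higher (27.8%, against 18.6% of all genes) and 1 lower, the muscle creatine kinase Ckm (-0.66). Among the higher were Gatm, the first enzyme of creatine synthesis (1.17), and mitochondrial creatine kinase Ckmt2 (0.98). Without WT_LV replicate 3 the higher count was 9. The median length of the 18 genes was 13.8 kb. With the covariate 3 of them were called higher and 0 lower, and with the 2-level term 0 (2 higher at an unadjusted p).

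**Figure D4:**
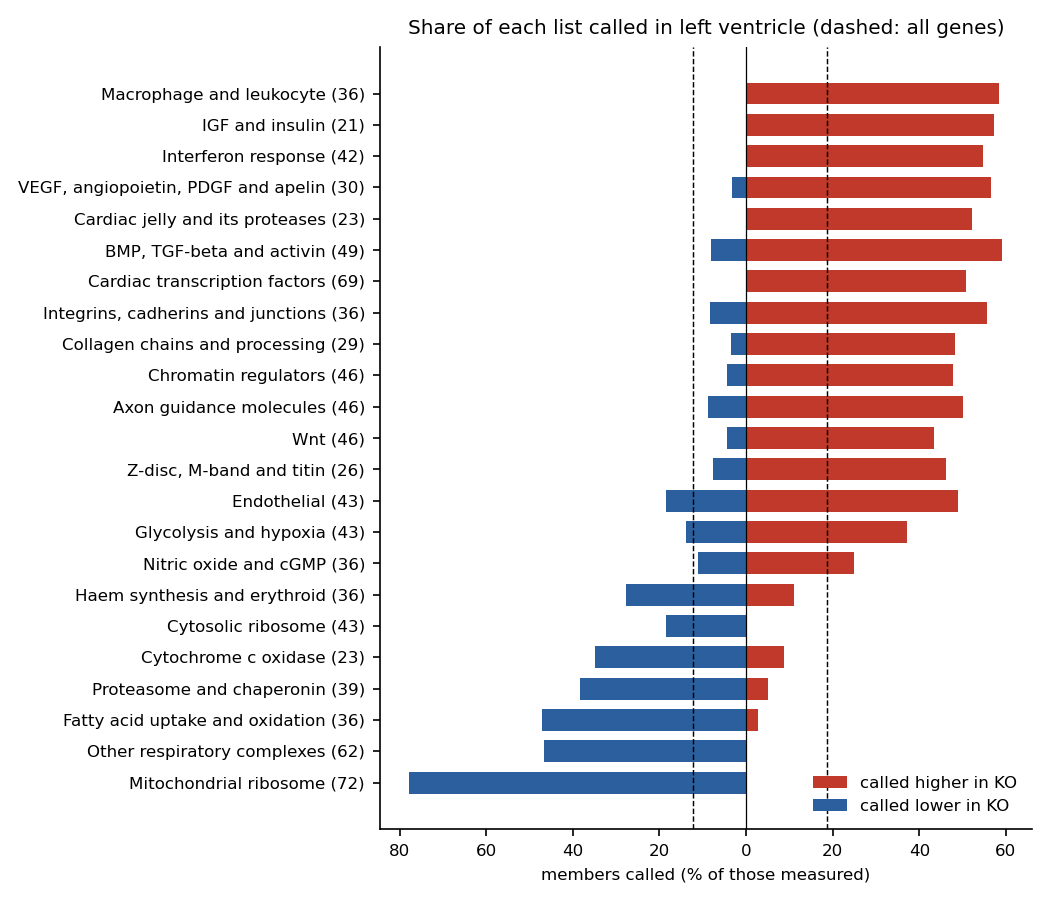
Share of the measured members of 23 gene lists called higher (red, to the right) or lower (blue, to the left) in KO left ventricles (x axis, %), with the number measured in brackets and the shares over all genes dashed. The mitochondrial ribosome has 77.8% called lower and 0 higher, and the macrophage, interferon and transcription factor lists have 0 called lower.

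Contractile genes were higher in part. Of 26 genes of Z-disc, M-band and titin 12 were called higher (46.2%, against 18.6% of all genes) and 2 lower (7.69%, against 12.3%). Their median was 0.29 and their median length 30.5 kb. Ankrd1, a stress-sensing titin partner, read 12.71, 12.41 and 12.39 on the WT arrays and 13.28, 13.26 and 13.38 on the KO arrays, a rise of 0.80 (SE 0.16, limma adjusted p = 0.00212). Ldb3, a scaffold of the Z-disc, rose by 0.70 and Cmya5 by 0.67, while Myom2, an M-band protein, fell by 0.82, with -0.93 to 0.03 on its other probe sets. Of 14 myosin genes (median length 23.8 kb) 6 were called higher, led by the alpha heavy chain Myh6 (1.76, with 0.35 on its other probe set), and 3 without WT_LV replicate 1 or 2 or KO_LV replicate 3. The nonmuscle myosins Myh9 and Myh10 rose by 0.83 and 0.93, with -0.54 to 1.08 on the other probe sets of Myh9 and -0.33 on that of Myh10, and Myh7b fell by 0.91. Myl2, the ventricular light chain, was at 15.01 to 15.04 on all 6 arrays, where the highest value of any probe set on the 12 arrays is 15.19. Of 28 ion channel and gap junction genes (median length 23.2 kb) 11 were called higher and 5 lower, with Kcnj8, the channel pore of pericytes and smooth muscle, at -1.13. Without any 1 array these were 5 to 8 and 2 to 4, the lowest without WT_LV replicate 2 or KO_LV replicate 3 and without KO_LV replicate 3. With the covariate 6 of the Z-disc genes were called higher and 1 lower, and with the 2-level term 1 and 0 (1 lower at an unadjusted p). For the myosin genes these were 3 and 1 with the covariate and 0 with the 2-level term (2 higher at an unadjusted p), and for the ion channel genes 2 and 2 and then 0 (4 lower).

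Genes of the extracellular matrix were higher in several lists. Of 29 collagen chains and processing enzymes 14 were called higher and 1 lower, with a median of 0.52 and a median length of 68.8 kb. In the longest quintile of all genes 10 of 15 members were called higher, where 35.2% of all genes were. In the quintile before it 0 of 6 were, where 23.5% of all genes were. Col1a1, the main chain of type I collagen, read 9.43, 9.63 and 10.11 on the WT arrays and 11.02, 11.23 and 10.89 on the KO arrays, a rise of 1.32 (SE 0.23, limma adjusted p = 0.00109), with 1.05 on its other probe set. Col11a1, which nucleates fibrils, rose by 1.55 and Col5a2 by 1.16, and the type IV chains Col4a1, Col4a2 and Col4a5 by 0.90, 1.07 and 1.06. The abundant Col3a1 was at 13.18 to 13.52 in WT and 13.32 to 13.51 in KO (0.12) and was not called. Of 41 genes of basement membrane, elastic fibre and matricellular proteins (median length 31.8 kb) 16 were called higher and 2 lower, with the laminin chain Lamc1 at 1.15, nidogen Nid1 at 1.09, Thbs1, thrombospondin, at 1.14 and fibronectin Fn1 at 0.94. Other probe sets read -0.36 and 0.38 for Nid1, 0.28 for Lamc1 and -0.52 for Fn1. The proteoglycan decorin, Dcn (-0.19), was not called. Of 23 genes of the cardiac jelly, the matrix under the endocardium (median length 32.1 kb), 12 were called higher and 0 lower (also 0 at an unadjusted limma p). The largest rises among them were in Hapln1 and Vcan, and the highest difference in the list was 2.03. Next came Adamts15, a protease that cleaves the jelly, which rose by 1.02, from 6.09, 6.30 and 6.50 to 7.13, 7.28 and 7.53. Adamts1, another such protease, rose by 1.00. With the covariate 14 collagen, 11 basement membrane and 10 jelly genes were called higher, and with the 2-level term 1, 0 and 0 (10 basement membrane and 5 jelly genes at an unadjusted p).

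Adhesion and junction genes followed. Of 36 measured 20 were called higher (55.6%) and 3 lower, with a median of 0.38 and a median length of 81.2 kb. This length lies in the longest quintile of all genes, where 35.2% of all genes were called higher. The laminin receptor subunit Itga6 read 10.32, 10.36 and 10.43 on the WT arrays and 11.46, 11.56 and 11.71 on the KO arrays, a rise of 1.21 (SE 0.16, limma adjusted p = 0.000211), with 1.06 on its other probe set. Itgav rose by 1.19, but by 0.53 or less on its 4 other probe sets. The desmosome genes Dsp, desmoplakin, and Dsg2 rose by 1.00 and 1.04, with 0.02 to 1.31 and -0.23 to 0.97 on their other probe sets. Itga9, which binds tenascin and acts in lymphatic valves, fell by 1.12 and was at 0.02 and 0.97 on its other probe sets, and the endothelial claudin Cldn5 fell by 0.54. Right ventricles read 0.50 for Itga6, not called, and -1.46 for Itga9, called. With the covariate 15 members were called higher and 3 lower, and with the 2-level term 0 (3 at an unadjusted p) and 1, Itga9.

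Growth factor lists came next. Of 49 genes of BMP, TGF-beta and activin signalling 29 were called higher and 4 lower, with a median of 0.40 and a median length of 39.6 kb. Among the receptors Bmpr2 rose by 0.96, Acvr1b by 0.76, Tgfbr2 by 0.75 and Tgfbr1 by 0.64. Other probe sets read less: 0.13 and 0.69 for Bmpr2, -0.04 for Acvr1b, -0.0 and 0.10 for Tgfbr2 and 0.11 and 0.19 for Tgfbr1. The ligands differed: Bmp2 and Bmp5 both rose by 1.54, with 0.33 and 0.78 on the other probe sets of Bmp5, while Bmp4 fell by 0.48. The ligand Tgfb2 of endocardial cushions rose by 0.90 and Ltbp1, which stores latent ligand in the matrix, by 0.94. Of the transducers Smad1 rose by 0.53, with 0.29 and 0.46 on its other probe sets, Smad2 fell by 0.57, with 2.05 on its other probe set, and Smad4 (0.26) was not called. The feedback inhibitors Smad6 and Smad7 rose by 0.76 and 0.56, while the target gene Id3 fell by 0.38. Inhbb, an activin subunit, read 5.26, 4.98 and 5.20 on the WT arrays and 6.12, 6.34 and 6.20 on the KO arrays, a rise of 1.07 (SE 0.09, limma adjusted p = 6.74e-06), with -0.09 on its other probe set. With the covariate 18 were called higher and 1 lower, with the 2-level term 3 and 1.

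In insulin and IGF signalling 12 of 21 genes were called higher and 0 lower (also 0 at an unadjusted limma p), with a median of 0.48 and a median length of 49.5 kb. Igfbp5, a binding protein, read 11.84, 11.73 and 11.33 on the WT arrays and 12.80, 12.94 and 12.93 on the KO arrays, a rise of 1.26 (SE 0.21, limma adjusted p = 0.000925), with 0.15 on its other probe set. The ligand Igf1 rose by 0.76, its receptor Igf1r by 0.77, the insulin receptor Insr by 0.85, the adaptor Irs1 by 0.81 and the transcription factor Foxo3 by 0.86. The other probe sets of Igf1r ran from -0.55 to 0.83 and those of Igf1 from 0.15 to 0.83. Those of Insr read 0.03 and 0.18, and those of Foxo3 0.11 and 0.77. The abundant ligand Igf2, at 14.04 to 14.19 in WT and 14.28 to 14.42 in KO (0.21), was not called. Igf2r, the receptor that clears it, rose by 1.07. With the covariate 8 were called higher and 1 lower, and with the 2-level term 0 (2 higher and 1 lower at an unadjusted p).

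Vascular growth factors and their receptors held 17 called higher and 1 lower of 30 (median 0.56, median length 29.3 kb). The receptors Kdr, Flt1, Flt4, Tek and Tie1 rose by 0.71, 0.65, 0.96, 0.72 and 0.61, and the ligands Vegfc and Pdgfd by 0.75 and 1.19. Other probe sets ran from 0.20 to 1.12 for Flt1 and from 0.09 to 0.66 for Pdgfd, and that of Flt4 read 0.06. Pdgfd read 6.06, 6.47 and 6.09 on the WT arrays and 7.36, 7.20 and 7.62 on the KO arrays, and right ventricles gave 1.25. With the covariate 12 were called higher and 0 lower, and with the 2-level term 1 and 0 (0 lower also at an unadjusted p).

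Guidance molecules, which steer axons and also shape vessels and the septa of the heart, held 23 called higher and 4 lower of 46 (median 0.36). Their median length was 117 kb. In the longest quintile of all genes 13 of 26 members were called higher, where 35.2% of all genes were. Robo1 read 5.98, 5.54 and 6.27 on the WT arrays and 8.0, 7.94 and 8.20 on the KO arrays, a rise of 2.12 (SE 0.24, limma adjusted p = 5.66e-05), and its ligand Slit2 10.12, 10.02 and 9.49 in WT and 11.37, 11.72 and 11.47 in KO, a rise of 1.64 (SE 0.23, adjusted p = 0.000298). The genotypes did not overlap in either gene, as in 44.4% of all genes. Right ventricles read 1.53 and 1.22, both called. The probe sets of these genes differed: the 2 others of Robo1 read -0.07 and -0.04, and those of Slit2 -0.46 and 1.23. Plxnd1, the endothelial receptor of class 3 semaphorins, rose by 1.11, Plxna2, a receptor of neural crest cells, by 1.10 and the netrin Ntn1 by 0.91, with -0.07 on its other probe set and -0.18 with the 2-level term. The 4 lower calls rest on few arrays, with 0 to 3 when 1 was left out and 0 without WT_LV replicate 3. With the covariate 15 were called higher and 0 lower, and with the 2-level term 0 (10 higher and 2 lower at an unadjusted p).

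In the Wnt list 20 of 46 genes were called higher and 2 lower (median 0.30, median length 34.2 kb), among them the noncanonical ligand Wnt5a at 0.85 (-0.43 to 0.81 on its other probe sets) and its receptor Ror1 at 0.93, the receptor Fzd2 at 0.98 and Rspo3, which amplifies the signal, at 0.95. Znrf3, which removes the receptors that Rspo3 protects, rose by 1.20, with -0.03 on its other probe set. The other probe set of Rspo3 read 0.20. Of 27 FGF genes (median length 16.7 kb) 10 were called higher and 2 lower, and 6 were called higher without KO_LV replicate 2. The target genes Etv5 and Dusp6 rose by 1.00 and 0.65, with -0.07 and 0.09 on the other probe sets of Etv5. With the covariate 11 Wnt genes and 3 FGF genes were called higher and 1 and 0 lower, and with the 2-level term 0 of either (10 Wnt and 3 FGF genes higher at an unadjusted p).

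Transcription factors of heart development held 35 called higher and 0 lower of 69 (1 lower at an unadjusted limma p), with a median of 0.31. Their median length was 12.9 kb, and of all genes in the length quintile that holds this value 10.9% were called higher. Foxc2, a factor of mesenchyme and lymphatic endothelium, read 6.85, 7.19 and 6.74 on the WT arrays and 8.32, 8.38 and 8.49 on the KO arrays, a rise of 1.47 (SE 0.16, limma adjusted p = 4.31e-05), and its relative Foxc1 rose by 0.99. Esrrg, a nuclear receptor that drives genes of oxidative metabolism in the perinatal heart, rose by 0.99, with -1.21 to -0.11 on its other probe sets. The Iroquois factors Irx3, Irx4, Irx5 and Irx6 rose by 1.29, 0.60, 0.61 and 0.60, and Irx1 (0.14) and Irx2 (0.22) were not called. Tead1, which reads Hippo signalling, rose by 0.73 and Myocd, the coactivator of serum response factor, by 0.63. The endocardial factor Gata5 rose by 0.77, with 0.0 on its other probe set. In the right ventricle 10 were called higher, and 4 without WT_RV replicate 3. Without any 1 array 29 to 33 were called higher, with the covariate 21 and with the 2-level term 0 (14 at an unadjusted p).

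Chromatin regulators held 22 called higher and 2 lower of 46 (median 0.27, median length 62.4 kb). The DNA methyltransferase Dnmt3a rose by 0.85, the BAF complex subunit Arid1a by 0.79, Smarcc1 by 0.77, the acetyltransferase Ep300 by 0.67 and Tet3, which oxidises methylated DNA, by 0.67. The heterochromatin protein Cbx1 fell by 0.61 and Smarcd3, another BAF subunit, by 0.43. The Polycomb methyltransferase Ezh2 (-0.11) was not called. With the covariate 9 were called higher and 2 lower, and with the 2-level term 0 (2 higher and 2 lower at an unadjusted p).

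Endothelial genes held 21 called higher and 8 lower of 43 (median 0.32, median length 15.3 kb). In bulk tissue, fewer cells of a type and less RNA per cell cannot be told apart. Cd93, a receptor of endothelial adhesion, read 10.91, 10.67 and 10.85 on the WT arrays and 11.95, 11.95 and 12.07 on the KO arrays, a rise of 1.18 (SE 0.18, limma adjusted p = 0.000442), and Mmrn2, its ligand, rose by 1.11. The transcription factors Ets1, Sox7, Fli1 and Erg rose by 0.69, 0.67, 0.65 and 0.55. Other probe sets ran from -0.91 to 0.82 for Ets1 and read 0.06 for Sox7, 0.17 for Fli1 and 0.43 for Erg. Procr, the protein C receptor of endocardium and large vessels, read 8.81, 8.76 and 8.77 on the WT arrays and 8.06, 7.69 and 8.17 on the KO arrays and fell by 0.81, with -0.93 in the right ventricle. Fabp4, a fatty acid carrier of capillaries, fell by 0.66, with -1.21 to -0.44 on its other probe sets. Pecam1 (0.22) and Cd34 (0.16), general markers of the endothelium, were not called. Of 17 epicardial genes (median length 25.6 kb) 4 were called higher (23.5%, against 18.6% of all genes) and 1 lower (5.88%, against 12.3%). Krt19, an epicardial keratin, rose by 1.04 from 8.14, 8.61 and 8.55 to 9.48, 9.30 and 9.65, while Tcf21, a factor of epicardium and fibroblasts, fell by 1.12 from 10.09, 10.11 and 10.03 to 9.02, 8.88 and 8.98, with 0.17 on its dimmer probe set. With the covariate 15 endothelial genes were called higher and 3 lower, and with the 2-level term 0 (6 at an unadjusted p) and 1. For the epicardial genes these were 4 and 1, and 1 and 0 (1 lower at an unadjusted p).

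Macrophage and leukocyte genes held 21 called higher and 0 lower of 36 (58.3% higher, against 18.6% of all genes; 1 lower at an unadjusted limma p), with a median of 0.50 and a median length of 11.7 kb. Of its members in the shortest quintile of all genes 10 of 17 were called higher, where 7.79% of all genes were, and in the longest quintile 3 of 5. Ctss, a lysosomal protease of macrophages, read 8.56, 8.71 and 8.87 on the WT arrays and 9.89, 10.15 and 10.03 on the KO arrays, a rise of 1.31 (SE 0.11, limma adjusted p = 6.74e-06). Mpeg1, a pore-forming protein of phagocytes, rose by 1.04, the complement genes C1qb and C1qc by 1.04 and 0.65, Adgre1, the F4/80 antigen, by 0.91 and Lyve1, a receptor of resident macrophages and lymphatics, by 0.78. Pf4 (-0.15), also expressed by fetal macrophages, was not called. The 8 markers set for the cell type averaged 7.23 to 7.35 in WT and 7.96 to 8.12 in KO. Right ventricles gave a median of 0.13 and 4 calls, all higher. With the covariate 22 were called higher (median 0.66) and with the 2-level term 5 (median 0.54).

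Interferon response genes held 23 called higher and 0 lower of 42 (54.8%, against 18.6%; 1 lower at an unadjusted limma p), with a median of 0.40 and a median length of 15.5 kb. Several were immunity-related GTPases, which act on the vacuoles of intracellular microbes. Irgm1 read 6.29, 6.47 and 6.66 on the WT arrays and 7.77, 7.29 and 7.70 on the KO arrays, a rise of 1.11 (SE 0.14, limma adjusted p = 0.000158). Irgm2 rose by 1.02, Igtp by 0.98, the guanylate-binding protein Gbp3 by 0.91 and Iigp1 by 0.78. None of these genes, picked among called ones, overlapped between genotypes, as in 44.4% of all genes. Trim34a, a ring-finger protein of the same chromosome cluster of Trim genes as Trim12a, read 4.79, 4.67 and 5.04 on the WT arrays and 7.21, 7.23 and 6.94 on the KO arrays, a rise of 2.29 (SE 0.12, adjusted p = 9.59e-08), but -0.50 on its other probe set. Rtp4, an interferon-induced chaperone, rose by 1.57, with 0.16 on its other probe set, and Oasl2, at 3.46 to 5.22 a dim probe set, by 1.28. Of the classical targets Ifit3 rose by 0.55, Oas1a by 0.40 and Ddx58 by 0.71, with -0.18 and 0.76 on the other probe sets of Ddx58, while Oas2 (-0.12) and Stat2 (-0.19) were not called, nor was Mx1 (-0.14), at 3.51 to 4.01 below the median of all values. With the covariate 19 were called higher and with the 2-level term 5 (median 0.50).

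The interferon-stimulated response element binds the factor complex that type I interferon activates. Its core, GAAA, any 2 bases and GAAA on either strand, was present in the promoter windows of 21 of 31 interferon genes that had one (67.7%), against 3.63% of all 14453 genes. Of the 21 genes with the letters 16 were called higher, and of the 10 without 2, Oasl2 and Xaf1. Outside the list 18.7% of 503 genes with the letters and 18.4% of 13919 without were called higher. The windows of 4 GTPase genes are shown, from the same build and in the same way, with the element in capitals; where 2 matches overlap, the capitals run on. They are Irgm1 (minus strand, chr11:48871371-48871670), Irgm2 (plus strand, chr11:58214727-58215026), Igtp (plus strand, chr11:58199306-58199605) and Gbp3 (plus strand, chr3:142559794-142560093), the first of its 2 windows, where the element is on the reverse strand.
Irgm1: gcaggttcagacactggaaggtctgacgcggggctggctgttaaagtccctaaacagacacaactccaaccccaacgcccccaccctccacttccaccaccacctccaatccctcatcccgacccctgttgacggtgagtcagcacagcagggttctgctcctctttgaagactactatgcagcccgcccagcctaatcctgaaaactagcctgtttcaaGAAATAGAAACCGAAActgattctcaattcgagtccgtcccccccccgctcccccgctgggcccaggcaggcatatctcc
Irgm2: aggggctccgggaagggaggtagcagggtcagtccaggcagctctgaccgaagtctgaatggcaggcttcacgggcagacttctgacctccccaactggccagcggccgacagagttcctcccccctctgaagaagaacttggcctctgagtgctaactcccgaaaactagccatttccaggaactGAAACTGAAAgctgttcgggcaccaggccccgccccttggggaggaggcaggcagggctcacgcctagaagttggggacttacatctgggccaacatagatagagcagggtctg
Igtp: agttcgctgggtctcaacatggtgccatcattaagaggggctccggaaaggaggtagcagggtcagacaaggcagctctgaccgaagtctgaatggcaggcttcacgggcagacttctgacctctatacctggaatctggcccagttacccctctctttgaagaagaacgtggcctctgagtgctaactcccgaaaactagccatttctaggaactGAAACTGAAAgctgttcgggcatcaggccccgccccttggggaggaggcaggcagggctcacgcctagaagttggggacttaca
Gbp3: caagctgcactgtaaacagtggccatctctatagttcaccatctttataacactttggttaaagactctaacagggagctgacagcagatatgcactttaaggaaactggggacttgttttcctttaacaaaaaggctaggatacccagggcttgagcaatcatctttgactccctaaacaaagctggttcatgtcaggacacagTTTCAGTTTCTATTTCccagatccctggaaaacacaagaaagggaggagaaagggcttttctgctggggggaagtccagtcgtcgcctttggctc

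Genes of haem synthesis and erythroid cells were lower in part, while the embryonic globin Hbb-y was higher. Of 36 measured 10 were called lower and 4 higher, with a median of -0.26 and a median length of 16.1 kb. The enzymes of haem synthesis went both ways. Among the falls were Alas2, the first enzyme of the erythroid pathway, at -1.06, Alad, the second, at -1.39, Uros at -0.92 (0.14 on its other probe set), Fech, which inserts iron, at -0.95 (-0.84 to 0.72 on its other probe sets) and the mitochondrial iron importer Slc25a37 at -1.08. Alad read 10.03, 10.81 and 11.06 on the WT arrays and 9.25, 9.14 and 9.33 on the KO arrays (SE 0.24, limma adjusted p = 0.000874), with -0.47 on its other probe set, and -1.26 in the right ventricle. Hbb-y, an embryonic beta globin, was at 14.56, 14.43 and 14.40 in WT and 14.91, 14.74 and 14.84 in KO, a rise of 0.37, and its probes may also read related globins. The other higher calls were Ppox, an enzyme of haem synthesis, at 0.50, with -0.44 and 0.0 on its other probe sets, Cpox, the enzyme before it, at 0.53, with -0.30 and 0.30, and Hba-x, an embryonic alpha globin, at 0.79. Cpox and Hba-x were not called without WT_LV replicate 2 or KO_LV replicate 3, nor Hba-x without KO_LV replicate 1. The erythroid factors Gata1 (-0.26) and Klf1 (-0.52) were not called. Without any 1 array the lower count was 7 to 12, and the higher count 2 without WT_LV replicate 2 or KO_LV replicate 3. With the covariate 7 were called lower, and with the 2-level term 0 (4 at an unadjusted p, median -0.34).

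Right ventricle differences had the same sign for most called genes. These arrays entered the left ventricle comparison through the shared variances and through the choice of probe set, which used all 12 arrays. Of the 3378 genes called higher in the left ventricle 3126 (92.5%) had a difference of the same sign in the right ventricle, and 727 (21.5%) were also called higher there. Of the 2239 called lower 2047 (91.4%) had the same sign and 409 (18.3%) were called. Over all genes 1490 (8.19%) were called in the right ventricle, 838 higher (4.61%) and 652 lower (3.58%). Fewer calls there are no test of a smaller difference. The test of the difference between ventricles, the interaction of genotype and ventricle, called 4 genes (0.022%). Here 1 array decides: WT_RV replicate 3, whose poly-A controls (8.96) stood with the WT left ventricles while those of the other 2 WT right ventricles were at 8.05 and 8.13. Without it the interaction called 1309 genes. Of these 736 were higher in KO left ventricles and less so, or lower, in right ones, and 395 were lower and less so, or higher. Without it, too, 81.4% of the higher and 75.7% of the lower genes kept their sign in the right ventricle, 438 and 256 were called there, and the median difference of the higher genes was 0.15 in the right against 0.51 in the left ventricle (0.24 with all arrays). A difference between ventricles in the size of the genotype effect and the control level of the arrays cannot be told apart.

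Of these 4 genes 3 were called higher in the KO left ventricle and not called in the right, where Tcf24 was slightly lower in KO (-0.22). Gpnmb, a membrane glycoprotein of macrophages, read 5.79, 5.56 and 5.72 on the WT left ventricle arrays and 6.87, 7.17 and 6.76 on the KO arrays, against 5.54 to 5.84 and 5.63 to 5.83 in WT and KO right ventricles (limma interaction adjusted p = 0.0208). Gfra1, a receptor for glial cell line-derived neurotrophic factor, read 5.38, 5.61 and 5.40 on the WT left ventricle arrays and 6.33, 6.70 and 6.89 on the KO arrays, against 5.56 to 5.67 and 5.49 to 5.66 in right ventricles (adjusted p = 0.0332). Tcf24, a helix-loop-helix factor, read 6.04, 6.60 and 6.34 on the WT left ventricle arrays and 7.55, 7.62 and 7.94 on the KO arrays, against 5.85 to 6.02 and 5.67 to 5.81 in right ventricles (adjusted p = 0.00784). In each of the 3 the KO left ventricles stood above all other 9 arrays. The second probe set of Gpnmb read -0.01, and the other probe sets of Gfra1 -0.06. Dcpp1, a secreted protein of salivary glands, was low in 3 groups, at 5.23, 5.33 and 5.73 in WT left, 3.91, 4.18 and 3.98 in KO left and 3.88 to 4.22 in KO right ventricles, and high in WT right ventricles, at 8.59, 9.15 and 9.80 (adjusted p = 0.00033). All 4 were also called without WT_RV replicate 3. The count of genes was 2 without WT_LV replicate 2, 10 without WT_LV replicate 3 and 1364 with array weights.

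**Figure D5:**
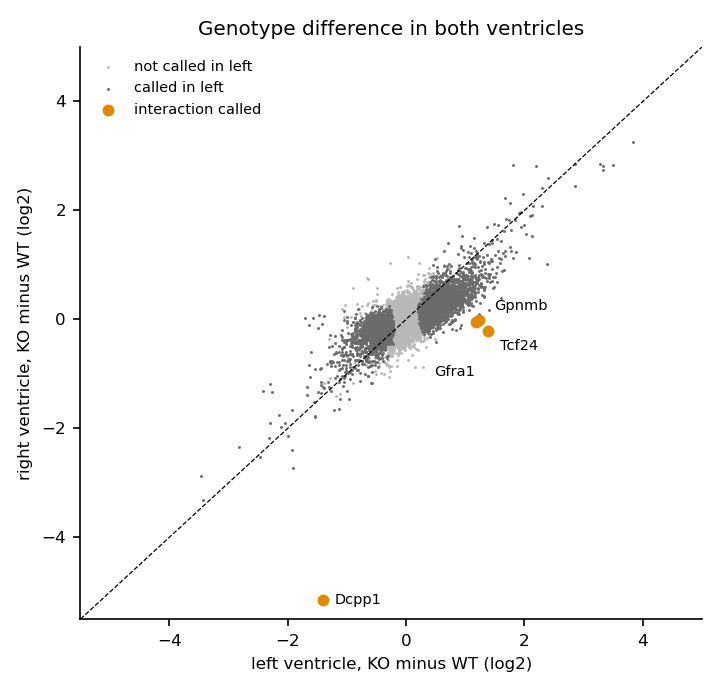
Difference between KO and WT in the left ventricle (x axis, log2) and in the right ventricle (y axis, log2), 1 point per gene, with genes called in the left ventricle dark, the line of equal differences dashed and the 4 genes with a called interaction in orange. Most called genes lie on the same side of 0 in both ventricles, Gpnmb, Gfra1 and Tcf24 near 0 on the right ventricle axis, and Dcpp1 at -5.15 there.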

How the data were processed

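RNA from the pooled ventricles (100 ng) was labelled for Affymetrix arrays, as the labels' protocols state. Log2 values of 45101 probe sets were deposited. The authors used RMA, which corrects background, quantile-normalizes the arrays and summarises each probe set, per the submitters' processing notes, where no version is named. They run from 2.42 to 15.19, and array medians from 5.57 to 5.74. Because RMA brings all arrays to 1 distribution, a shift shared by most genes can be hidden, and a difference can move where the makeup of the RNA differs. The genome build is not given in the sources used here. Scanner files and detection calls were not used here.

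A probe set named a gene where the platform annotation gave it 1 symbol (34958 probe sets; 932 had several and 9211 none). Of these 34754 matched a RefSeq table of GRCm38.p6, which also gave gene lengths. For 9012 genes with several probe sets the one with the highest mean over all arrays was used. Differences were fitted with limma (lmFit and eBayes) in 1 model of the 4 groups, 12 arrays, with Benjamini-Hochberg adjustment over 18194 genes. The step was tested on simulated data. With 3 arrays per group their number limits the precision. Same-numbered WT and KO left ventricle pools deviated together with correlations of 0.01, 0.14 and 0.42, so the numbers were not taken to pair WT with KO samples. Whether same-numbered left and right ventricles of a genotype came from the same embryos was not checked in this way. The main model treats their arrays as independent.

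The comparison, its gene lists and its rules were chosen with earlier results of these data known. Genes were picked by rule. The rule took Nos3, the 12 largest rises and falls among called genes without overlap, and genes with a called interaction. It also took the 12 largest each way among genes whose probe sets are all bright and differ by 0.5 or more in 1 direction. Of a list it took up to 3 called members each way and 2 uncalled bright members. Not all genes picked are printed, and those printed from a list need not be its largest differences. Predicted genes were passed over, and 1 result is not reported here. Other members of lists, and Gchfr beside Gch1, were chosen after their values were seen, and members whose calls or signs changed with many settings were mostly left out. Other settings were a filter on dim genes, a further quantile normalization, median centring, trend and robust variances, array weights, left ventricle arrays alone, the replicate number as a block, the mean of probe sets, every probe set, stricter thresholds, the poly-A level as a covariate and leaving out arrays; the 2-level control term, the right ventricle and lists without WT_RV replicate 3 and the unadjusted counts were added after seeing the data. Fits were made with limma 3.58.1 in R 4.3.3, and tables and figures with pandas 2.3.3, scipy 1.17.1 and matplotlib 3.10.9 in Python 3.11.15.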

Additional observations from a re-analysis of the deposited data

Results flagged for a closer look

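For 4 genes the genotype difference of the right ventricle departed from that of the left in the limma test of the difference itself. The right minus left difference was -3.74 for Dcpp1 (SE 0.32), -1.22 for Gfra1, -1.25 for Gpnmb and -1.60 for Tcf24. In Gfra1, Gpnmb and Tcf24 the genotypes differed by 1.18, 1.24 and 1.38 in the left ventricle, where they did not overlap, and by -0.04, -0.01 and -0.22 in the right. In Dcpp1 they differed by -1.41 in the left and -5.15 in the right ventricle, where the WT values were high.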

How the results depend on the processing

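Of the 212 genes named and tested, which leave out Hapln1 and Vcan, 53 had the same direction and call in every setting tried. Members whose calls hung on 1 array were mostly left out of the text, so the calls of the named genes say nothing about stability; over all called genes 64.5% of the higher and 49% of the lower calls held in each fit without 1 left ventricle array. Against 3378 higher and 2239 lower calls, testing every probe set gave 5453 and 3485, the poly-A covariate 1767 and 782, the 2-level control term 134 and 63, an adjusted p below 0.01 gave 2101 and 992, a difference of 1 or more 269 and 112, and median centring 1212 lower. Without 1 left ventricle array the counts were 2487 to 3242 and 1421 to 1849. The interaction, at 4 genes, gave 2 with a further quantile normalization, with the mean of probe sets or with every probe set, 1 with the 2-level term, 1364 with array weights and 2 to 1309 with 1 array left out. Without WT_RV replicate 3 there were 3715 higher and 2604 lower calls in the left ventricle. With the replicate number as a block, as a hint from the data only, calls numbered 3686 higher and 2638 lower, with 2 for the interaction, and as a random block 3620 and 2512, with 8. Nos3 was at -0.31 with median centring and -0.87 with the 2-level term, no longer called in either, nor at -0.41 with the stricter threshold, and at -0.44 to -0.36 without 1 array. The sign turned with the 2-level term for Gucy1a2 (-0.08), Mrps14 (0.08), Sdha (-0.13), Atp5a1 (-0.16), Smad4 (-0.03), Pgk1 (-0.03), Dcn (0.18, and 0.10 with the covariate) and Ntn1 (-0.18), and with the mean of probe sets for Esrrg (-0.11) and Smad2 (0.74); of these only Ntn1, Esrrg and Smad2 were called. The causes were not tested. What limits these data is 3 pools per group, a strain difference that goes with the genotype, and control levels that differ between the genotypes on all 6 arrays.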
